A study of Mus musculus with 6 samples.

Results

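Leukocyte adhesion molecules and integrins, 10 genes of the machinery by which white blood cells stick to and leave blood vessels, were examined in the lungs of leptin-deficient mice. They are the vascular ligands Vcam1, Icam1 and Icam2, the leukocyte integrin chains Itgb2, Itgal, Itgam and Itga4, the selectins Sele and Selp, and the selectin ligand Selplg. They were taken as all probe sets (groups of oligonucleotides that together report 1 transcript) whose platform annotation gives 1 symbol among these 10 genes, of 12393 genes so annotated. All 10 genes were on the array, with 15 probe sets. Total RNA from single lungs of ob/ob females (B6.V-Lepob/J, about 1 month old) was hybridised to 1-colour Affymetrix Mouse 430A arrays, 3 for mice given leptin and 3 for mice given saline. Every animal of both groups carries the ob mutation of the leptin gene and so makes no functional leptin of its own, and no wild-type lung was analysed here. The labels state neither dose, duration nor route.

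Leukocytes leave the blood in steps. Selectins on activated endothelium (Sele, Selp) and on platelets (Selp) catch rolling cells through glycosylated ligands such as the product of Selplg, P-selectin glycoprotein ligand. Integrins on the leukocyte then hold it in place: the alpha chains of Itgal and Itgam each pair with the beta chain of Itgb2 to form LFA-1 and Mac-1, which bind Icam1 and, for LFA-1, Icam2, while the alpha chain of Itga4 pairs with Itgb1 or Itgb7 and binds Vcam1. In the lung, Icam1 is present without stimulation on capillary endothelium and alveolar epithelium, Icam2 is a constitutive endothelial protein, and Vcam1 and Sele are known for their induction by inflammatory cytokines through the transcription factor NF-kB.

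Promoters were found for 5 of the 10 genes in the RefSeq table (GRCm38.p6), each running from 250 bases before to 50 bases after the annotated start. Those of Icam1, bright on 5 of the arrays, and of Itgam and Sele, both dim, are shown so that a bright gene can be set beside dim ones. Capitals mark matches on either strand to GAGGAA (printed as its reverse complement where the match is on the other strand), the core recognised by the myeloid factor PU.1. The promoters lie at chr9:21015690-21015989 (Icam1), chr7:128062390-128062689 (Itgam) and chr1:164047984-164048283 (Sele), all on the plus strand.
Icam1: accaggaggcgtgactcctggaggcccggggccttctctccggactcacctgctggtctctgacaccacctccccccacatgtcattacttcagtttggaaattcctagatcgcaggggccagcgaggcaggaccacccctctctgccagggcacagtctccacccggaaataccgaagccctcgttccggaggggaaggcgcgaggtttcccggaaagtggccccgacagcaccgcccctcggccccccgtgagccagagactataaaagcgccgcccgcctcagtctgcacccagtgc
Itgam: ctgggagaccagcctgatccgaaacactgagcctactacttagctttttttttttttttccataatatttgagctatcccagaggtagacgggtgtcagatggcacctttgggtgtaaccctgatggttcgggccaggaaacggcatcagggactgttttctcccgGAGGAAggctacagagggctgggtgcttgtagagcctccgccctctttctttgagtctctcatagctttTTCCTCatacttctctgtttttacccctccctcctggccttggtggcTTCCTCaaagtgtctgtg
Sele: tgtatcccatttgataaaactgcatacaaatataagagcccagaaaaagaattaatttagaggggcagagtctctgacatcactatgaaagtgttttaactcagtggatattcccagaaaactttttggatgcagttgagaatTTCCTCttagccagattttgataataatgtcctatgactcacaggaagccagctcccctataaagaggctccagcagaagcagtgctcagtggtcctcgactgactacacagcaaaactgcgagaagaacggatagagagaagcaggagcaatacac
The Itgam promoter held 3 such matches, which begin at -84, -15 and 32 bases from the start (counted as 0), Sele held 1, at -107, and Icam1, Itga4 and Selp held 0. A match was present in 28.3% of the 32851 promoters of equal length. For NF-kB, 1 narrow kappaB-like decamer pattern was searched on both strands. It was in 1.63% of all promoters and in 0 of these 5. Variants of the site that depart from this pattern were not searched. The 0 therefore does not show that these promoters, those of Icam1 and Sele included, lack NF-kB sites. Vcam1, Icam2, Itgb2, Itgal and Selplg are not among the promoters used here.

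One array has to be kept apart. Saline replicate 1 correlated at 0.438 to 0.447 with the other arrays (Pearson's r of log2 values over probe sets, whose values are not independent), against 0.973 to 0.978 among the other 5. Its spiked-in controls read a median 21.5 times their level elsewhere, and its 10th percentile of intensity was 57.0, against 16.3 to 19.2. Uty, a Y-linked gene, read 1108.1 and 301.9 on it and at most 67.3 and 72.5 on the others for its 2 probe sets, although each label gives a female. Each difference of the 10 genes is therefore given on 5 arrays (3 leptin, saline replicates 2 and 3) and on all 6, and the 5-array values are the base of the description. Single genes of other lists are given on 5 arrays, and each list's median also on 6.

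Vcam1 and Itgb2 had the clearest differences of the 10 genes, and both read higher in leptin-treated lungs. On the 5 arrays Vcam1 was 1.75-fold higher on 1 of its 3 probe sets and Itgb2 1.61-fold higher, with no overlap between groups. The other Vcam1 probe sets overlapped. Icam2 was 1.22-fold higher, Icam1 was level, Itgal and Selplg overlapped, and Itga4, Itgam and Sele were too dim to be tested. No probe set of the 10 genes passed the adjusted threshold of 0.05 in limma's test over 15838 probe sets in either comparison. The share of all probe sets that passed it was 0.0442% on the 5 arrays (7 probe sets) and 0.0% on all 6, where 32 were higher and 29 lower at an unadjusted p under 0.05. The 7 calls became 0 with the replicate number as a block. In that fit leptin replicate 1 has no saline partner and drops out of the difference. Leaving that array out also gave 0 calls, so the loss cannot be credited to pairing.

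**Figure D1:**
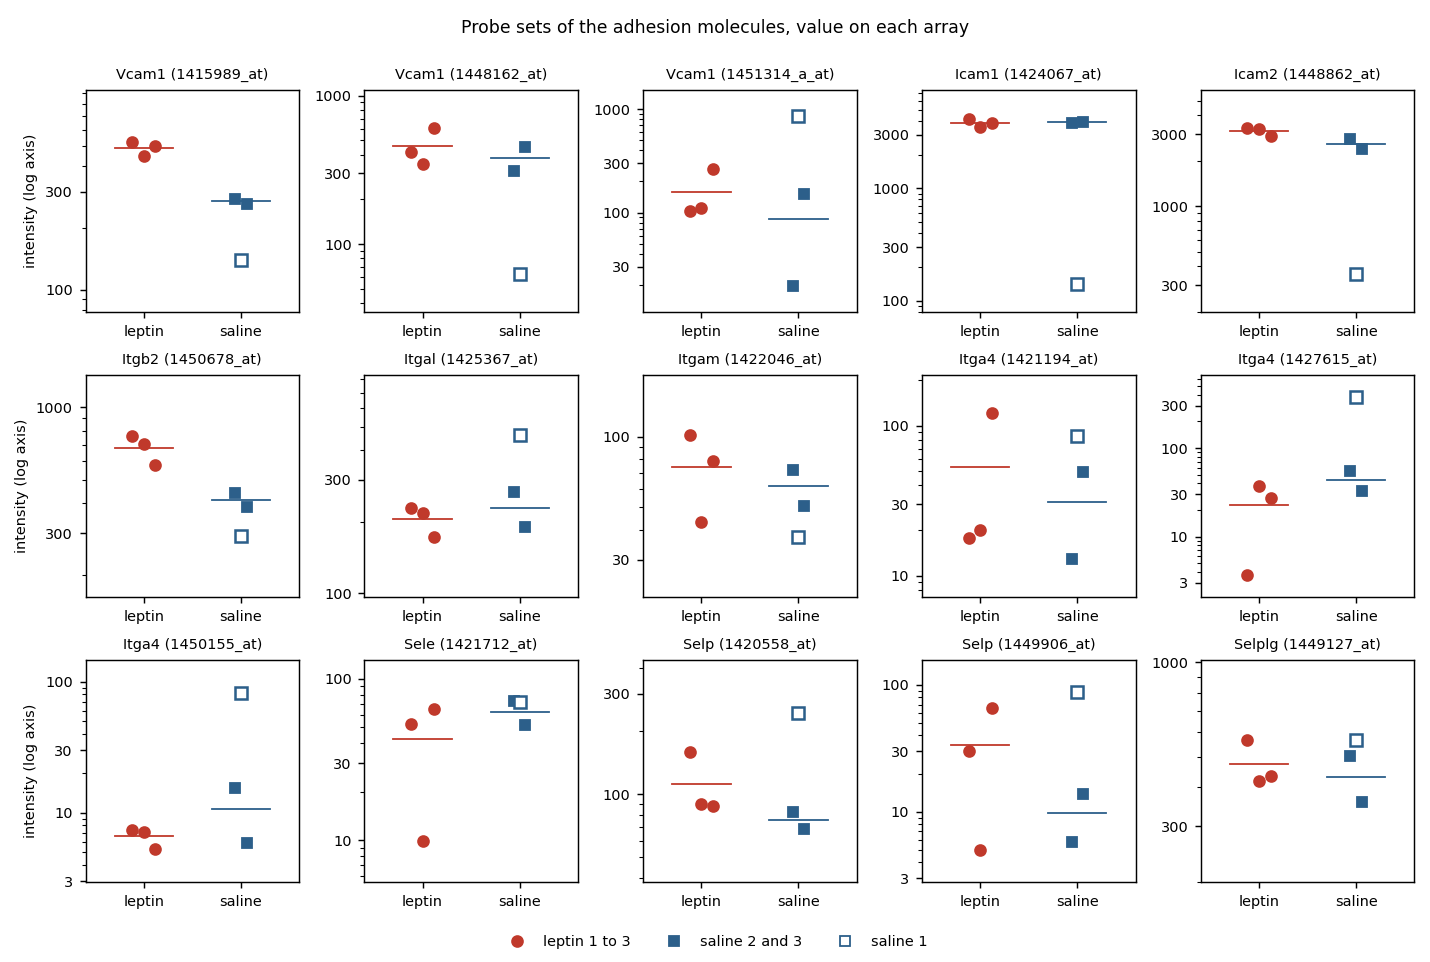
Intensity (log axis) of the 15 probe sets of the 10 genes on each array, leptin arrays left and saline arrays right, with saline replicate 1 as an open square. Lines mark the mean of the 3 leptin arrays and of saline replicates 2 and 3. The groups separate for 1415989_at of Vcam1 and for Itgb2, and saline replicate 1 lies far below the rest for Icam1 and Icam2.

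Vcam1 (Entrez Gene 22329), the endothelial ligand of alpha-4 integrins, is read by 3 probe sets that share this gene as their target and did not give the same picture. Probe set 1415989_at read 519.2, 448.0 and 500.3 on the leptin arrays, against 277.1 and 261.3 on saline replicates 2 and 3 and 139.9 on saline replicate 1. Every leptin array was above every saline array. The 5-array difference was 0.81 ± 0.16 on the log2(intensity + 22) scale (leptin minus saline ± SE; limma adjusted p = 0.211, unadjusted p = 0.000353), with a 95% interval of 0.46 to 1.16. The leptin mean was 489 ± 36.9 (SD, n = 3), and the saline mean was 269 ± 11.2 (SD, n = 2). With all 6 arrays the difference was 1.09 ± 0.32 (limma adjusted p = 0.715), and the saline mean was 226 ± 75.1 (SD, n = 3).

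The second Vcam1 probe set, 1448162_at, read 419.5, 348.0 and 607.7 with leptin, against 308.9 and 451.8 on saline replicates 2 and 3 and 62.3 on saline replicate 1. Here the groups overlapped, and leptin replicate 3 alone was above both of those saline arrays. Its difference was 0.24 ± 0.24 on 5 arrays (95% interval -0.28 to 0.77; limma adjusted p = 1.0) and 0.99 ± 0.67 on 6 (0.715). The third, 1451314_a_at, read 103.4, 111.0 and 261.5 with leptin, against 19.5 and 152.8 on saline replicates 2 and 3 and 855.5 on saline replicate 1. Its direction thus depends on which saline arrays are used, at 0.98 ± 0.54 on 5 arrays (limma adjusted p = 1.0) and -0.14 ± 1.08 on 6 (0.948). Within its array, this probe set stood at percentile 54.1 or below with leptin, against 10.4 and 41.0 on saline replicates 2 and 3 and 81.0 on saline replicate 1, while the first and second stood at 29.2 and 11.4 there.

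Icam1 (15894), the ligand of LFA-1 and Mac-1, gave a bright signal on 5 arrays and did not separate by treatment. It read 4181.9, 3532.3 and 3828.8 with leptin, against 3813.3 and 3911.8 on saline replicates 2 and 3, and only 142.2 on saline replicate 1. The leptin arrays lie on both sides of the saline pair. The 5-array difference was -0.01 ± 0.12, with a 95% interval of -0.27 to 0.26 (limma adjusted p = 1.0). With all 6 arrays it was 1.51 ± 1.24 (limma adjusted p = 0.715), a value that rests on saline replicate 1, where the mean of the other arrays was 27.1 times the reading.

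Icam2 (15896), the constitutive endothelial ligand of LFA-1, read 3277.0, 3257.4 and 2918.0 with leptin, against 2783.9 and 2392.4 on saline replicates 2 and 3 and 356.0 on saline replicate 1. The groups did not overlap, although the lowest leptin array lay close to the higher saline array. The difference was 0.28 ± 0.13 on 5 arrays (95% interval 0.01 to 0.56; limma unadjusted p = 0.0469, adjusted p = 1.0) and 1.21 ± 0.78 on 6 (adjusted p = 0.715). Leptin means of 3151 ± 202 (SD, n = 3) stood against 2588 ± 277 (SD, n = 2).

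Among the integrin chains, the shared beta chain Itgb2 (16414) read 758.2, 704.8 and 574.3 with leptin, against 440.3 and 383.4 on saline replicates 2 and 3 and 292.1 on saline replicate 1. All leptin arrays were above all saline arrays, with leptin replicate 3 the lowest of its group. The difference was 0.69 ± 0.17 on 5 arrays (95% interval 0.32 to 1.05; limma unadjusted p = 0.00181, adjusted p = 0.520) and 0.84 ± 0.27 on 6 (adjusted p = 0.715). The leptin mean was 679 ± 94.6 (SD, n = 3), against a saline mean of 412 ± 40.2 (SD, n = 2).

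Itgal (16408), the alpha chain of LFA-1, read 229.1, 217.0 and 172.9 with leptin, against 266.2 and 190.7 on saline replicates 2 and 3 and 462.0 on saline replicate 1. The groups overlapped, and the difference was -0.13 ± 0.21 on 5 arrays (95% interval -0.60 to 0.35; limma adjusted p = 1.0) and -0.45 ± 0.37 on 6 (0.715). The beta chain and this alpha chain of the same receptor therefore had point estimates of opposite sign, and their difference was not tested.

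Itgam (16409), the alpha chain of Mac-1 on neutrophils and macrophages, fell below the filter that removes the dimmest 30% of probe sets. It read 101.6, 43.3 and 78.6 with leptin, against 72.1 and 50.9 on saline replicates 2 and 3 and 37.3 on saline replicate 1. Leptin replicate 2 lay below both of the first pair, so the groups overlapped. In the fit without a filter the difference was 0.17 ± 0.33 on 5 arrays and 0.33 ± 0.43 on 6.

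Itga4 (16401), the alpha-4 chain that binds Vcam1, was near the bottom of the scale on all 3 of its probe sets. Probe set 1421194_at read 17.9, 20.2 and 121.1 with leptin, against 12.9 and 49.4 on saline replicates 2 and 3 and 84.7 on saline replicate 1. Leptin replicate 3 stood alone there. Probe set 1427615_at read 3.7, 37.1 and 27.0 with leptin, against 55.2 and 33.0, and 373.6 on saline replicate 1, and 1450155_at read 7.4, 7.1 and 5.3 with leptin, against 15.3 and 5.9, and 81.5 on saline replicate 1. Without a filter the 5-array differences were 0.32 ± 0.58, -0.63 ± 0.38 and -0.17 ± 0.20 in that order, and the 6-array differences were -0.05 ± 0.68, -1.50 ± 0.81 and -0.74 ± 0.56, with overlap between groups for each. A transcript read this low gives no measure of how much alpha-4 integrin mRNA the lungs held.

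Of the selectins, Selp (20344), stored in endothelial and platelet granules, read 158.5, 89.5 and 88.1 with leptin on probe set 1420558_at, against 82.5 and 68.5 on saline replicates 2 and 3 and 242.4 on saline replicate 1. On 5 arrays the groups did not overlap, by a margin smaller than the spread within leptin. Its difference was 0.42 ± 0.30 (limma adjusted p = 1.0) on 5 arrays and -0.06 ± 0.52 on 6 (0.956). Its other probe set, 1449906_at, was below the filter at 29.9, 5.0 and 66.0 with leptin, against 5.8 and 13.7 on saline replicates 2 and 3 and 87.6 on saline replicate 1. Without a filter its difference was 0.66 ± 0.45 on 5 arrays and 0.06 ± 0.70 on 6, with overlap.

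Sele (20339), the cytokine-induced endothelial selectin, was also below the filter and read 52.3, 9.9 and 64.8 with leptin, against 72.9 and 51.8 on saline replicates 2 and 3 and 71.7 on saline replicate 1. The groups overlapped, and the difference without a filter was -0.50 ± 0.43 on 5 arrays and -0.56 ± 0.50 on 6. Selplg (20345), the leukocyte ligand of P-selectin, read 566.7, 418.9 and 435.8 with leptin, against 503.1 and 358.2 on saline replicates 2 and 3 and 565.7 on saline replicate 1. Its values were interleaved, with a difference of 0.14 ± 0.20 on 5 arrays (95% interval -0.29 to 0.57; limma adjusted p = 1.0) and 0.01 ± 0.28 on 6 (0.991).

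**Figure D2:**
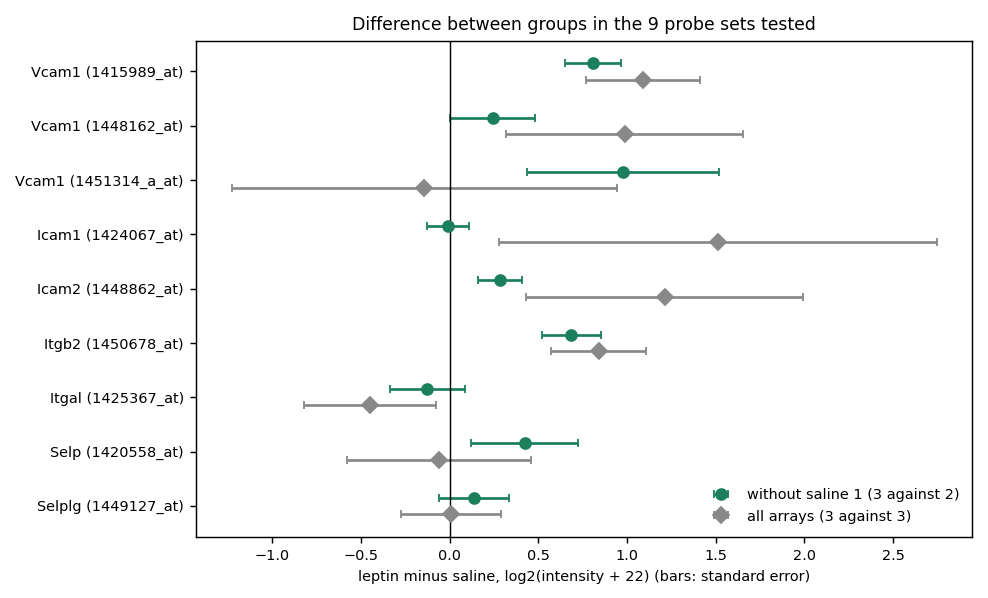
Difference between leptin and saline (log2(intensity + 22), bars are standard errors) for the 9 probe sets tested, on 5 arrays (circles) and on all 6 (diamonds). Vcam1 1415989_at and Itgb2 lie at 0.81 and 0.69 on 5 arrays and at 1.09 and 0.84 on 6, whereas Icam1 moves between -0.01 and 1.51.

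Across the 10 genes, 9 probe sets of 7 genes passed the filter and 6 did not. The 6 dim ones include every probe set of Itga4, Itgam and Sele. On the 5 arrays these 6 read between 3.7 and 121.1, at percentile 1.2 to 35.8 of their array. Of the 9 tested, 7 were higher and 2 lower with leptin on the 5 arrays, with a median of 0.28, against a median of 0.00 over all 15838. The limma unadjusted p was under 0.05 in the higher direction for 3 of the 9 (Vcam1 1415989_at, Itgb2 and Icam2), against 2.61% of all probe sets, and in the lower direction for 0 of the 9, against 1.98%. The groups did not overlap, in the higher direction, for 4 of the 9, against 9.92% of all, and in the lower direction for 0, against 9.66%. On all 6 arrays, 6 were higher and 3 lower (median 0.84, against 0.02 over all), 2 were at an unadjusted p under 0.05 as higher, against 0.202% of all, and 3 did not overlap, against 5.0%. As lower, 0 of the 9 were at such a p, against 0.183% of all, and 0 did not overlap, against 4.1%. The 9 are not independent, since 3 read Vcam1, and they are what the filter left of 15. On 5 arrays, Selp 1420558_at fell below the filter without leptin replicate 1, and Vcam1 1451314_a_at without leptin replicate 3. Each passed it through its highest leptin array, so the counts of higher probe sets depend in part on the filter.

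The design text of the series calls a change where at least 6 of 9 leptin-saline pairs pass 1.5-fold, with a 1.5-fold difference and p under 0.05. Vcam1 1415989_at met this rule with 9 of 9 pairs and Itgb2 with 7 of 9, among 0.107% of probe sets that met it as higher. On the 5 arrays, where 4 of 6 pairs are asked for, Vcam1 1415989_at had 6 of 6 and Itgb2 had 4 of 6, against 0.259% of all. None of the other 7 tested probe sets met it in either comparison, and 0 met it as lower, against 0.0947% of all on 6 arrays and 0.234% on 5. Its p-values are not adjusted, and its test is not named, so a 2-sample test with pooled variance was used.

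The rank of a probe set within its own array does not depend on the scaling of that array, but it depends on the probes, so it compares arrays and not genes. Icam1 stood at percentile 96.9 to 97.7 on the leptin arrays, against 97.3 and 97.2 on saline replicates 2 and 3 and 29.6 on saline replicate 1. Icam2 stood at 95.9 to 96.6 with leptin, against 95.7 and 94.5, and 52.6 on saline replicate 1. Both are constitutive vascular ligands in the lung, and both ranked far lower on saline replicate 1. Vcam1 1415989_at ranked at 67.3 to 70.4 with leptin, against 54.8 and 54.2 on saline replicates 2 and 3, and Itgb2 at 73.3 to 79.0 with leptin, against 66.8 and 63.7. Among the 9 tested probe sets, Selplg was the one whose rank on saline replicate 1 (67.3) lay within the range of the other arrays (61.9 to 72.5). Over the 15 probe sets, saline replicate 1 was the lowest of all arrays in 6 and the highest in 6.

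**Figure D3:**
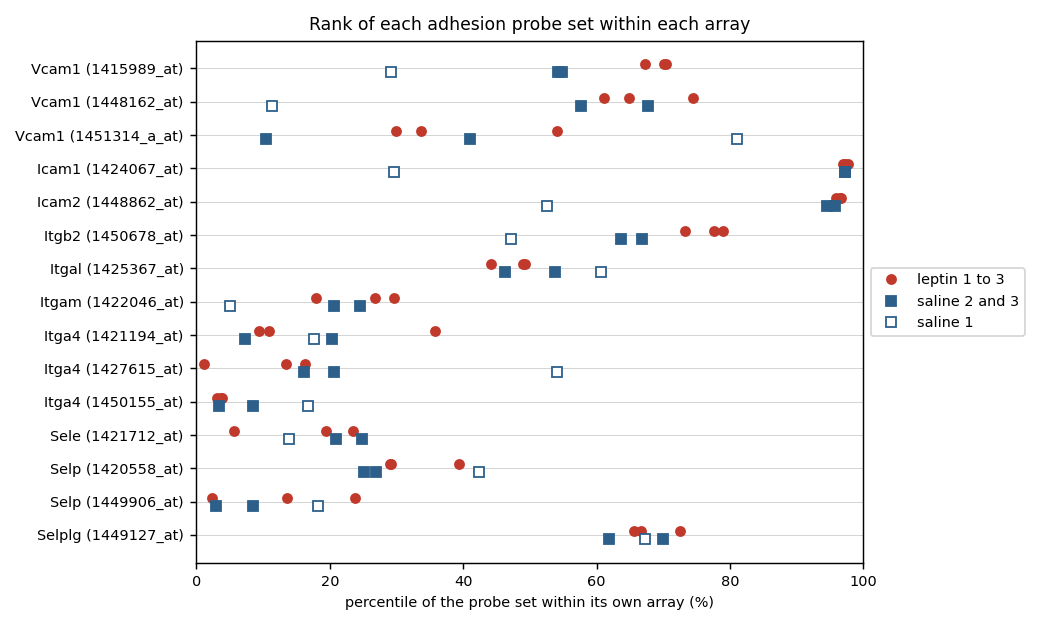
Percentile of each of the 15 probe sets within its own array, for leptin arrays (circles), saline replicates 2 and 3 (squares) and saline replicate 1 (open squares). Icam1 lies between 96.9 and 97.7 on 5 arrays and at 29.6 on saline replicate 1, and the leptin arrays lie right of saline replicates 2 and 3 for Vcam1 1415989_at and Itgb2.

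The receptors and ligands act with other molecules of the same pathway, given here with 1 tested probe set per gene (the one with the highest mean on the 5 arrays) and 5-array values. Of 9 other integrin chains, 4 were higher and 5 lower with leptin, with a median of -0.06, and 0 passed the adjusted threshold in limma. Itgb7, which pairs with Itga4, read 199.9, 244.9 and 227.8 with leptin, against 156.2 and 159.3 on saline replicates 2 and 3 and 53.0 on saline replicate 1, without overlap (0.45 ± 0.19, limma unadjusted p = 0.0406, adjusted p = 1.0). Itgax, a further partner of Itgb2 on macrophages and dendritic cells, read 496.3, 437.3 and 480.2 with leptin, against 242.5 and 455.4, and 924.7 on saline replicate 1, with overlap (0.47 ± 0.23). Both Itgb2 partners that were tested, Itgal and Itgax, thus overlapped between groups.

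Of 18 other adhesion and transmigration genes, 8 were higher and 10 lower (median -0.01), and 0 were at an unadjusted p under 0.05 in limma. Jam2, a junctional adhesion molecule, and Cd47, a transmembrane partner of integrins, had the smallest p, at -0.16 ± 0.15 and 0.13 ± 0.13. Of 11 selectin ligand glycosylation genes, 8 were higher (median 0.07), led by B3gnt3 at 0.46 ± 0.26 and Chst2 at 0.23 ± 0.16, enzymes that extend and sulphate the sugar chains selectins bind. Of 16 integrin activation genes, 10 were higher (median 0.04), with Vcl, an adaptor that ties integrins to actin, at 0.23 ± 0.15 and Rap1b, a small GTPase that switches integrins on, at 0.14 ± 0.12. In both of these lists 0 genes were at an unadjusted p under 0.05 in limma.

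In the list of the NF-kB pathway and its endothelial targets, the genes that could be tested had no common direction. Of 15 tested genes 7 were higher and 8 lower with leptin (median -0.12), and 0 passed the adjusted threshold. Tnf, Il6, Ccl2, Cxcl1, Cxcl2, Rel and Nfkbie of the same list were below the filter. Nfkb1 and Chuk had no probe set with 1 symbol. Most cytokine and chemokine genes of the list were thus not tested. Nfkbia, the inhibitor that NF-kB itself induces, read 11313.3, 10726.4 and 11666.6 with leptin, against 13945.1 and 14103.8 on saline replicates 2 and 3 and 63657.2 on saline replicate 1. Every leptin array was below every saline array, at -0.32 ± 0.10 on 5 arrays (limma unadjusted p = 0.00813, adjusted p = 0.924) and -1.05 ± 0.81 on 6. Rela, a DNA-binding subunit, was at -0.30 ± 0.15, with overlap.

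**Figure D4:**
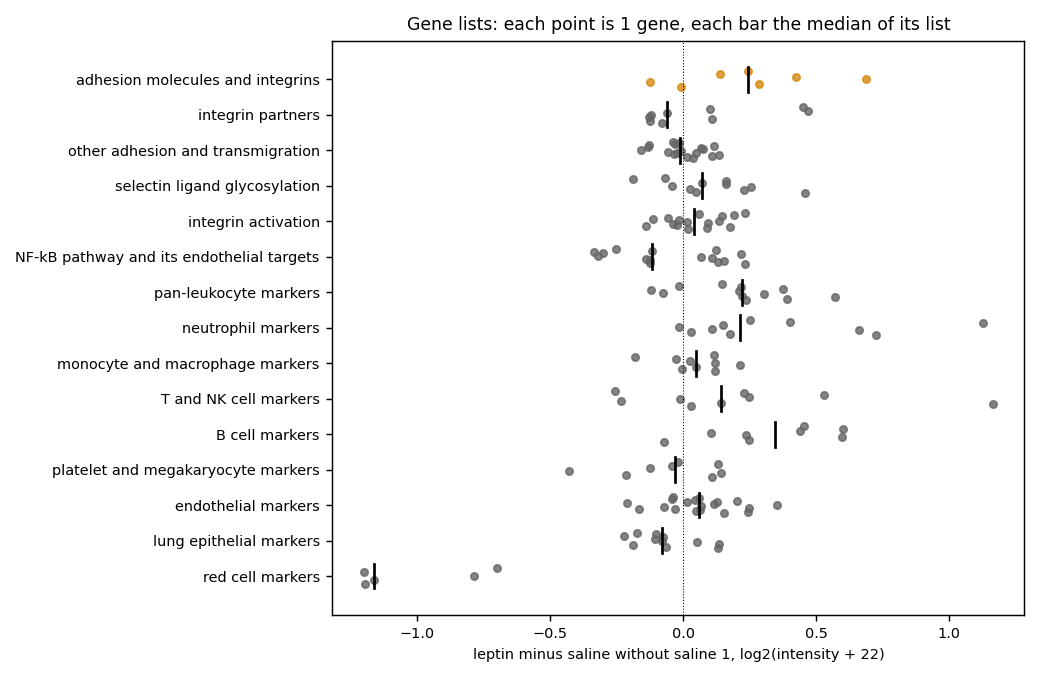
Leptin minus saline difference on 5 arrays (log2(intensity + 22)) for each gene of the adhesion molecules (top row, 1 probe set per gene, so Vcam1 is shown by 1448162_at at 0.24) and of 14 other lists, with the median of each list as a bar. Pathway lists centre between -0.12 and 0.07, and the red cell markers lie apart at a median of -1.16.

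In whole lung, more cells of a type and more RNA per cell cannot be told apart, so the markers of cells that carry these molecules were read beside them. Itgb2 is carried by nearly all leukocytes. Of 12 pan-leukocyte markers, 9 were higher and 3 lower with leptin on 5 arrays (median 0.22), 1 of them, Cd52, at an unadjusted p under 0.05 in limma (0.57 ± 0.16, adjusted p = 0.713). Arhgdib read 1192.6, 1302.3 and 1214.3 with leptin, against 1088.8 and 1002.4 on saline replicates 2 and 3 and 282.6 on saline replicate 1, without overlap on 5 arrays or on 6 (0.24 ± 0.13 on 5). The summed intensity of the 12 markers was 10926 to 11721 with leptin, against 9800 and 10576 on saline replicates 3 and 2 and 16251 on saline replicate 1, where Cytip alone gave 9826.7. Ptprc (CD45) read 1040.0, 917.2 and 1438.5 with leptin, against 1032.5 and 879.2, and 1531.2 on saline replicate 1, with overlap (0.22 ± 0.19). The part of leukocyte content in the Itgb2 difference was not tested.

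Among leukocyte types, 7 of 8 B cell markers were higher (median 0.34), with a summed level of 10088 to 11044 with leptin, against 9163 and 8730 on saline replicates 2 and 3 and 4423 on saline replicate 1. Cd74, which other antigen-presenting cells also express, carried 79.4% to 83.4% of that sum on the 5 arrays. The other 7 markers summed to 2269, 1696 and 1989 with leptin, against 1653 and 1448 on saline replicates 2 and 3 and 3570 on saline replicate 1. Cd37 and Fcer2a led that list, at 0.60 ± 0.20 and 0.60 ± 0.23. Of 10 neutrophil markers 9 were higher (median 0.21), but their sums overlapped, at 5147 to 8403 with leptin, against 7150 and 4350 (8410.5 on saline replicate 1). Elane, Prtn3 and Cxcr2 of the same list were below the filter. Ltf and Ngp were at 0.66 ± 0.20 and 1.13 ± 0.47. Of 9 T and NK cell markers 6 were higher (median 0.14), with sums of 1913 to 2203 with leptin, against 2119 and 1720 (3214 on saline replicate 1). Cd3d and Klrd1 led, at 1.16 ± 0.37 and 0.53 ± 0.23. Cd3d read 201.2, 205.5 and 177.4 with leptin, against 139.5 and 35.6 on saline replicates 2 and 3 (limma adjusted p = 0.936). It read 98.2 on saline replicate 1. Cd3g and Cd247, of the same receptor complex, overlapped, at 0.14 ± 0.26 and 0.03 ± 0.30. Cd3e, Cd4, Cd2 and Il2rb of this list were below the filter. Of 9 monocyte and macrophage markers 6 were higher (median 0.05), with sums of 32119 to 38849 with leptin, against 36310 and 37683 and 109464 on saline replicate 1. Csf1r alone gave 93803.4 of that last sum, and the other 8 markers summed to 15660.5 there, against 29169 to 35465 on the other arrays. Lyz2 carried 60.6% to 69.7% of the sum on the 5 arrays and read 2050.9 on saline replicate 1. Lyz2 and Cd68 were at -0.18 ± 0.13 and 0.21 ± 0.18.

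Vcam1, Icam2, Sele and Selp are made by endothelium, and Selp also by platelets. Of 19 endothelial markers, 13 were higher and 6 lower (median 0.06), with a summed level of 56283 to 63396 with leptin, against 59908 and 58712 on saline replicates 2 and 3 and 16261 on saline replicate 1. Kdr and Car4 had the smallest p, at 0.35 ± 0.16 and 0.24 ± 0.13. The groups did not overlap, in the higher direction, for 6 of the 19 on 5 arrays, against 9.92% of all probe sets, and in the lower direction for 0, against 9.66%. The part of endothelial content in the Vcam1 difference was not tested. Of 8 platelet and megakaryocyte markers 3 were higher and 5 lower (median -0.03), with Gp9 and Gp1bb at -0.43 ± 0.17 and -0.22 ± 0.20, and with sums of 4354 to 5198 with leptin, against 4873 and 4798 (5702.5 on saline replicate 1). Of 11 lung epithelial markers 8 were lower (median -0.08), with Sftpb and Aqp5 at -0.22 ± 0.10 and -0.19 ± 0.11. All 5 tested red cell markers were lower, 3 of them past the adjusted threshold, with sums of 4649 to 6080 with leptin, against 13627 and 11015 and 706 on saline replicate 1. Slc25a37, Alas2 and Bpgm were at -1.20 ± 0.14, -1.20 ± 0.15 and -1.16 ± 0.16 (limma adjusted p = 0.0496 for each), and their readings on saline replicate 1 were far below those on the other arrays.

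With saline replicate 1 added, many of these medians moved. On all 6 arrays the median was 0.50 for the other integrin chains (7 of 9 higher), 0.35 for the other adhesion and transmigration genes (12 of 18), -0.07 for selectin ligand glycosylation (4 of 10), 0.23 for integrin activation (10 of 16) and -0.15 for the NF-kB list (4 of 15). Among the markers it was 0.20 for pan-leukocyte (7 of 12), 0.25 for B cell (5 of 8), 0.35 for neutrophil (6 of 9), -0.08 for T and NK cell (3 of 8) and -0.20 for monocyte and macrophage markers (4 of 9). It was 0.81 for endothelial (15 of 19), -0.04 for platelet (3 of 8), 1.02 for lung epithelial (10 of 11) and -0.04 for red cell markers (2 of 5, against 0 of 5 on 5 arrays). Lists with fewer genes here than on 5 arrays lost them to the filter.

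**Figure D5:**
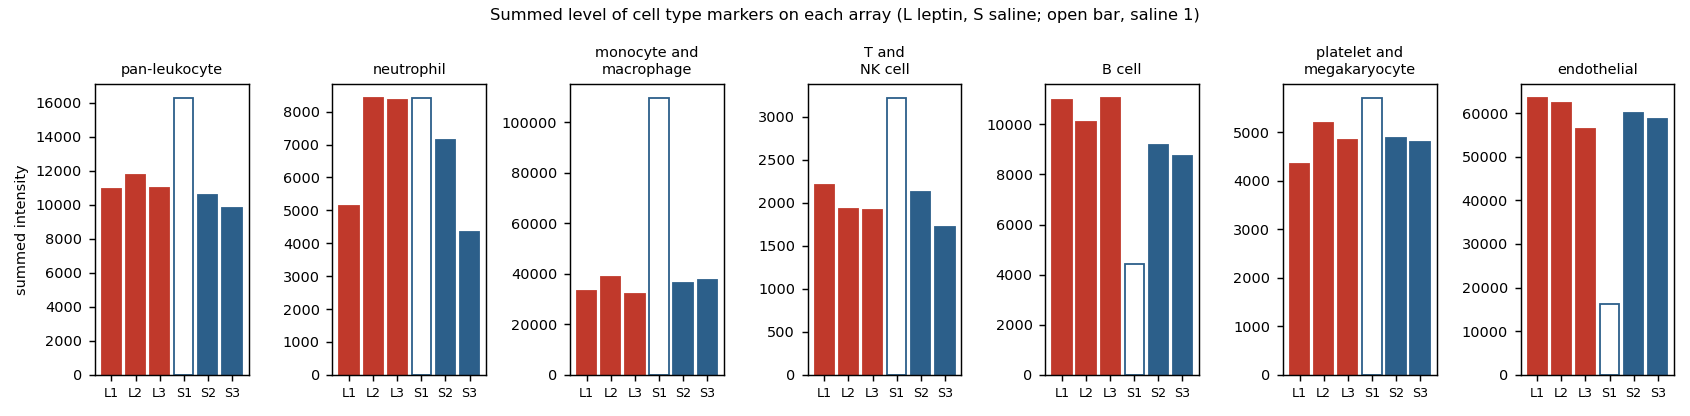
Summed intensity of the tested markers of 7 cell types on each array, leptin arrays (L1 to L3) left and saline arrays (S1 to S3) right, with saline replicate 1 as an open bar. Pan-leukocyte and B cell sums are higher on the leptin arrays than on saline replicates 2 and 3, and the other sums overlap. On saline replicate 1 the endothelial sum is low, while its low B cell sum rests on Cd74 (852.7) and its high macrophage sum on Csf1r (93803.4).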

How the data were processed

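Each array's deposited column holds linear intensity values, 1 per probe set. Per the labels' protocols, Trizol-extracted RNA was amplified and labelled from an oligo(dT) primer. Which software summarised the probes is not stated in the labels or the file. A mean that leaves out 2% of probe sets at each end lay between 499.96 and 499.98 on each array, so arrays had been scaled to a common mean. For arrays, their number limits the precision.

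Of 22690 probe sets, 64 controls were set aside, and genes were named from the platform annotation, where 20380 probe sets have 1 symbol, 691 several and 1555 none. Analysis used log2(intensity + 22.0), with the table's 10th percentile as the pseudocount, so differences of dim probe sets are understated. After removal of the 30% with the lowest mean, limma 3.58.1 (R 4.3.3) was run on 15838 (lmFit, eBayes with trend, two-sided, Benjamini-Hochberg over all tested, threshold 0.05), with 3 leptin against 3 saline arrays and again without saline replicate 1. The fits were also run on simulated data, with outcomes not given here, so no power or error rate is drawn from them.

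All 10 members, the lists, the motifs and the separation of saline replicate 1 were chosen with earlier results of these data known. Of each other list, genes past the threshold or else the 2 with the smallest unadjusted p on 5 arrays are named, with partners of the members (Itgax) and defining markers (Ptprc). Same-numbered arrays deviated together from their group means (r of 0.103 to 0.144 across probe sets, against -0.147 to 0.0491 for other pairs). The saline mean there included saline replicate 1, and deviations within a group cancel, so the other pairs are not an independent contrast. Whether the shared numbers mark pairs cannot be told from these values, and no label states it. Alternatives were other pseudocounts (1 and 79.9), filters, normalizations, the replicate block, no trend, array weights and leaving out each array.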

Additional observations from a re-analysis of the deposited data

How the results depend on the processing

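With 3 arrays against 3 or 2, and without detection calls, only large differences of bright probe sets can be resolved here. Over 234 repeats of the 18 member values under other settings, 215 kept their direction and their side of the threshold, and none passed it; the smallest limma adjusted p, 0.0977, was for Vcam1 1415989_at with array weights on all 6 arrays, which gave saline replicate 1 a weight of 0.0257. Vcam1 1415989_at ranged from 0.70 to 0.87 on 5 arrays and 0.80 to 1.25 on 6, and Itgb2 from 0.59 to 0.80 and 0.67 to 0.99. The other 19 repeats turned the direction, and the cause was not tested. On 6 arrays, Vcam1 1451314_a_at turned to 0.062 with a pseudocount of 1, 0.003 with a common median, 1.17 with array weights and between -1.22 and 1.17 over all settings, with 0.067 and 0.025 without leptin replicates 1 and 2. Selp 1420558_at turned to 0.071 with quantile normalization, 0.088 with a common median and 0.36 with array weights, and ran from -0.350 to 0.064 without 1 array, with 0.055 and 0.064 without leptin replicates 2 and 3. Selplg ran from -0.176 to 0.085 without 1 array, with -0.124 and -0.176 without leptin replicate 1 and saline replicate 3. On 5 arrays, Icam1 turned to 0.001 with quantile normalization, and leaving out a further array moved Icam1 between -0.070 and 0.051, Vcam1 1448162_at between -0.016 and 0.502, Vcam1 1451314_a_at between -0.059 and 2.016, Itgal between -0.344 and 0.094 and Selplg between -0.095 and 0.371.

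Over all probe sets, the 7 calls on 5 arrays became 0 with a pseudocount of 1, no filter, quantile normalization, a common median, the replicate block or no trend, and 0 to 3 when a further array was left out. The 0 calls on 6 arrays became 8 with array weights. With the replicate block, which on 5 arrays takes leptin replicate 1 out of the difference, no member's call changed. The series' rule was met by 32 probe sets on 6 arrays and by 16 (without leptin replicate 1) to 89 (without saline replicate 3) when 1 array was left out. A probe set below the filter under a setting has no value there. Where 1 saline array remains, it is assumed to vary like the leptin arrays.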
